A study of Homo sapiens with 19 samples.

Results

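NODAL signalling keeps human embryonic stem cells pluripotent, and the 10 genes described here are its ligands NODAL and GDF3, the coreceptor TDGF1, the receptors ACVR1B and ACVR2B, the secreted inhibitors LEFTY1, LEFTY2 and CER1, and the effectors SMAD3 and FOXH1. They were chosen by name and found through the RefSeq accession that the arrays give for each probe. The paper on these arrays already reports that NODAL, LEFTY1 and LEFTY2 decreased over time. The choice was made with such results known, so the count of falling genes is not independent of it. All 10 of them were among the 20503 genes that a probe could be matched to, each with 1 probe, and all 10 were among the 16694 genes tested. KhES-3, an established human embryonic stem cell line, was maintained in a medium with basic fibroblast growth factor. Per the labels this was on irradiated mouse embryonic fibroblasts, while the paper describes feeder-free maintenance. The cells were then moved to low-attachment dishes to be driven toward brown adipocytes (BAs). All 19 samples received the same serum-free medium, which held IGF-II, BMP4, VEGFA, KITLG, FLT3LG and IL-6 beside albumin, lipids, monothioglycerol, insulin, transferrin, selenium, Glutamax, a hybridoma supplement and ascorbate phosphate. They differ only in the time after induction, which was 3, 4 or 6 h, then 8, 10 or 12 h, then 14 or 16 h, then 20, 24, 28, 32 or 36 h, and last 42, 48, 54, 60, 66 or 72 h. Each time point is 1 culture on 1 array, and no array of untreated cells was analysed here, so every level below is that of cells already in the differentiation medium.

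NODAL is a secreted ligand of the TGF-beta superfamily. It binds a type I receptor such as ACVR1B together with a type II receptor such as ACVR2B, and for this it needs a coreceptor of the EGF-CFC family, of which TDGF1 (also called Cripto) is the member best known from stem cells. The receptors phosphorylate SMAD2 and SMAD3, which enter the nucleus with SMAD4 and act on DNA with partners such as FOXH1. Among the genes switched on in this way are NODAL itself and its inhibitors LEFTY1 and LEFTY2, so the pathway both feeds and restrains itself. In the embryo it is used to form mesoderm and endoderm.

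The arrays lay on 3 slides, with 3 to 12 h on the first (6 arrays), 14 to 42 h on the second (8 arrays) and 48 to 72 h on the third (5 arrays). Time and slide therefore overlap. Each array was scaled by its 75th percentile, and signals are given at a common percentile of 871. They are in arbitrary units that depend on the probe, so levels are compared within a gene only. The early window is the mean log2 signal at 3, 4 and 6 h and the late window that at 60, 66 and 72 h, and these are different time points, not replicates. Trends are slopes of log2 signal on hours fitted with limma, with p-values adjusted over all 32113 tested probes and a gene called at an adjusted p under 0.05. The error is the scatter of the points about the line, since the spread between cultures is unknown. These are bulk samples, in which fewer cells of a type and less RNA per cell cannot be told apart.

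By these calls 7 of the 10 genes fell (NODAL, GDF3, TDGF1, LEFTY1, LEFTY2, CER1 and SMAD3), against 29.8% of all genes tested. FOXH1 alone rose with the 75th percentile as the scaling, against 24.6% of all genes, but its slope was not above 0 when arrays were scaled by the spike-in RNA. The receptors ACVR1B and ACVR2B were called in neither direction. The median late minus early log2 change of the 10 genes was -0.96, and that of all 16694 genes was -0.05. The falls differed in size, and the secreted ligand NODAL and its inhibitors moved most. The log2 change was -2.15 for NODAL, -2.26 for LEFTY1, -2.31 for LEFTY2 and -2.53 for CER1, while it was -1.16 for SMAD3, -0.77 for GDF3, -0.63 for TDGF1, -0.04 for ACVR1B, 0.03 for ACVR2B and 0.45 for FOXH1. Of the 16694 genes, 63 had a lower change than NODAL.

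The slide bears on most of these calls. With the slide as a block, which leaves the trends within slides, 2 of the 10 genes fell (GDF3 and LEFTY2), against 5.97% of all genes, and 0 rose, against 4.12% of all genes. The limma adjusted p with that block was 0.0268 for GDF3 and 0.00309 for LEFTY2, and it was 0.463 for NODAL, 0.663 for TDGF1, 0.327 for LEFTY1, 0.4 for CER1, 0.566 for SMAD3 and 0.889 for FOXH1. Slide and time cannot be told apart for the part of each change that lies between the slides.

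**Figure D1:**
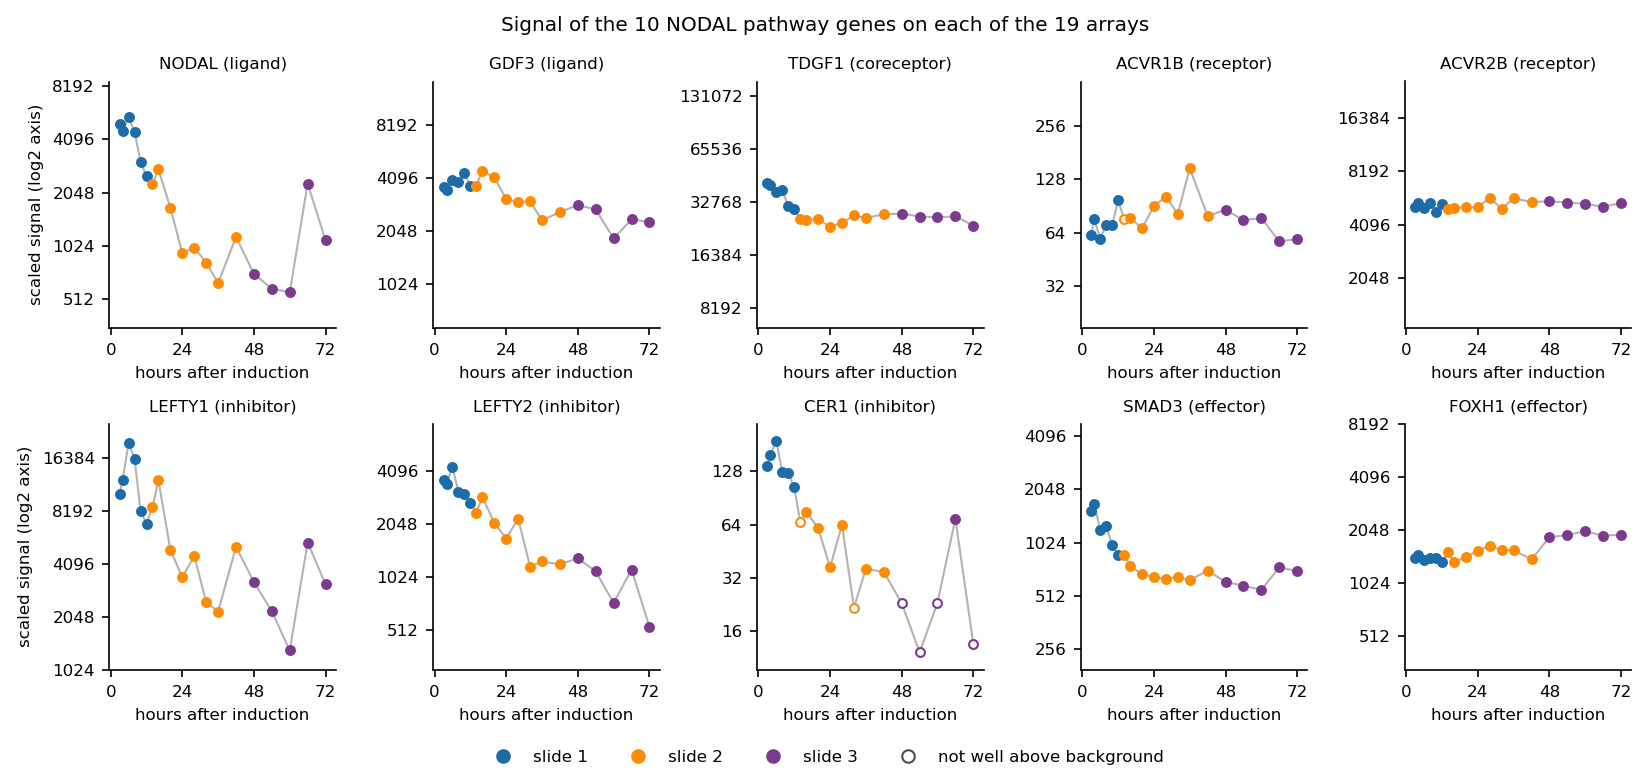
Each panel shows the scaled signal of 1 gene (log2 axis) against hours after induction, with 1 point per array coloured by slide and open points where the probe was not well above background. NODAL, LEFTY1, LEFTY2 and CER1 drop by over 2 log2 units between the windows with peaks at 6 h and at 66 h, while ACVR2B stays between 4842 and 5806 and FOXH1 is higher on the third slide with this scaling but not with the spike-in RNA.

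**Figure D2:**
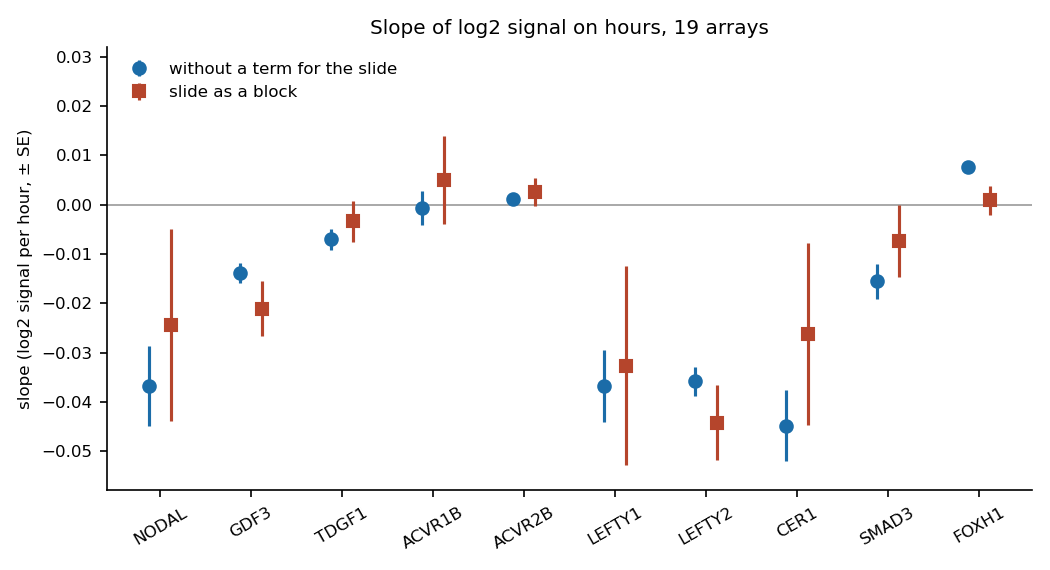
Slope of log2 signal on hours with its standard error for each gene, without a term for the slide (circles) and with the slide as a block (squares), over 19 arrays. With the block the slopes of GDF3 and LEFTY2 stay clear of 0, while those of NODAL, LEFTY1 and CER1 remain below 0 with wide errors and that of FOXH1 lies near 0.

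Among the ligands, NODAL (NM_018055) had its highest signal at 6 h (5467), a median of 1680 and its lowest at 60 h (558). It stood at 4988, 4547, 5467 and 4534 at 3, 4, 6 and 8 h, then at 3061 and 2535 at 10 and 12 h. From 20 h on it stayed below 50% of its early mean of 4986, so the arrays before 14 h were all above those from 24 h on. The slope was -0.0368 log2 units an hour (standard error 0.00807, limma adjusted p = 0.000865). The fall was steepest on the first slide, with a slope of -0.108 there and -0.0586 on the second, and on the third the slope was 0.0541, since NODAL returned to 2301 at 66 h.

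GDF3 (NM_020634), a second ligand of the family that also needs an EGF-CFC coreceptor and is known from pluripotent cells, fell later and less. Its signal lay between 3517 and 4479 on all arrays to 20 h, with the highest value at 16 h, and between 1858 and 3118 on all arrays from 24 h on. The early and the late arrays do not overlap, and the mean at 14 to 20 h was 0.15 log2 above the early window. The slope was -0.0138 log2 units an hour (standard error 0.00203, limma adjusted p = 1.6e-05). Within the slides it was 0.0164 on the first, -0.0284 on the second and -0.0138 on the third.

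TDGF1 (NM_003212, the RefSeq symbol CRIPTO), the coreceptor, fell early and then stayed level. It went from 41991 at 3 h to 26251 at 14 h, and on all arrays from 14 h on it lay between 23735 and 28140. The mean signal was 36271 on the first slide, 26093 on the second and 26615 on the third. Its slope over all arrays was -0.00706 log2 units an hour (standard error 0.00222, limma adjusted p = 0.0119), but with log2 hours as the time axis, which suits an early drop, it was -0.15 per doubling of time (adjusted p = 0.000155). Background correction by normexp with quantile normalization left a slope of -0.00361 (adjusted p = 0.202). TDGF1 has near-identical copies elsewhere in the genome, and with no probe sequences used here their share of its signal is not known.

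Neither receptor was called with the 75th percentile as the scaling. ACVR2B (NM_001106), the type II receptor, had a lowest signal of 4842, a median of 5358 and a highest of 5806, a range of 0.26 log2 over 72 h, and its standard deviation over the 19 arrays was 0.07 log2. Its slope was 0.00118 (standard error 0.00106, limma adjusted p = 0.364) with the 75th percentile but -0.00408 under the array median (adjusted p = 0.0489) and -0.00729 under the spike-in RNA (adjusted p = 0.122). ACVR1B (NM_020328), the type I receptor, was dim, between 57.0 and 148 with a median of 76.6, and was well above background on 18 of 19 arrays. It was 65.3 in the early window and 63.7 in the late one, with its highest value at 36 h, and its slope was -0.000736 (standard error 0.00344, limma adjusted p = 0.873). Over the arrays from 3 to 42 h alone ACVR1B rose, with a slope of 0.0167 (adjusted p = 0.03), an alternative chosen after seeing the data.

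The secreted inhibitors also fell, LEFTY2 later than NODAL. LEFTY1 (NM_020997) and LEFTY2 (NM_003240) are atypical TGF-beta family proteins that block NODAL and its coreceptor. LEFTY1 ranged from 1320 at 60 h to 19765 at 6 h with a median of 5100, and LEFTY2 from 538 at 72 h to 4316 at 6 h with a median of 2089. The LEFTY1 slope was -0.0368 log2 units an hour (standard error 0.00732, limma adjusted p = 0.000362). LEFTY1 stayed below 50% of its early mean from 20 h on, and LEFTY2 from 32 h on. The course of LEFTY2 was the smoother one, with a scatter around its line of 0.281 log2 against 0.73 for LEFTY1 and 0.806 for NODAL. LEFTY1 and LEFTY2 are near-identical neighbouring genes with 1 probe each, and how far each probe reads the other gene was not checked.

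CER1 (NM_005454), the inhibitor Cerberus that binds NODAL and BMPs outside the cell, was dim and fell below detection. Its signals were 137, 158 and 190 at 3, 4 and 6 h, and it was well above background on 13 of 19 arrays, among them all 3 early arrays but only 1 of the 3 late ones, that at 66 h. The late mean was 27.8 against 160 early, and the slope was -0.0448 log2 units an hour (standard error 0.00719, limma adjusted p = 4.2e-05). The size of this fall depends on values near background, since the log2 change was -2.53 here, -1.34 with normexp and quantile normalization and -1.27 in the deposited table, where values that are not well above background are blank.

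The promoters of the members that have an entry in the RefSeq tables (GRCh38.p14) were searched for 2 short motifs on both strands. AATNNACA (TGTNNATT on the other strand) is the core bound by FOXH1, and CAGAC, read with its reverse complement, is a SMAD-binding element. No matches of the 2 motifs overlapped in the stretches shown. In the 250 bases before the start, 9.88% of all 35116 promoters hold AATNNACA and 38% hold CAGAC. Matches to either motif are in capitals. The stretches shown belong to the early-falling NODAL and CER1, whose log2 signals correlate over the 19 arrays (r = 0.905), and to the later-falling GDF3. They lie at chr10:70441682-70441931 for NODAL, chr9:14722734-14722983 for CER1 and chr12:7695776-7696025 for GDF3, all on the minus strand, and are written 5′ to 3′ in the direction of the gene.
NODAL: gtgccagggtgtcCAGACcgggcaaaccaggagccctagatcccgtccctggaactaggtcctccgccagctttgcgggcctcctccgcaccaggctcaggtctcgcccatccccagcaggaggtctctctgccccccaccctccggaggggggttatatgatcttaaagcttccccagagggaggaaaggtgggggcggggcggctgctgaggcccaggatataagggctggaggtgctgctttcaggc
CER1: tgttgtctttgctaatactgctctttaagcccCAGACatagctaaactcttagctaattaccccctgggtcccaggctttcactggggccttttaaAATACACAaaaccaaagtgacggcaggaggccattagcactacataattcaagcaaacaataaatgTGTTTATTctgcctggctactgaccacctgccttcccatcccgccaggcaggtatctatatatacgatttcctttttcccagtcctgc
GDF3: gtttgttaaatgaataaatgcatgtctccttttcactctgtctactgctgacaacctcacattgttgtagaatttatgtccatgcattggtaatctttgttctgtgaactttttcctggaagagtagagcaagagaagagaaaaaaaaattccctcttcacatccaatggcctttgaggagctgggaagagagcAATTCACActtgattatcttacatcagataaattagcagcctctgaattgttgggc
CER1 holds AATNNACA at 154 and at 88 bases before its start (counted to the first base of the match) and CAGAC at 218. GDF3 holds AATNNACA at 56 bases before its start and no CAGAC. NODAL holds CAGAC at 237 bases before its start and no AATNNACA. One of the windows of ACVR1B, which has 2, holds CAGAC at 124 bases before its start. Among the 5 windows of SMAD3, which may overlap, AATNNACA lies 111 bases and CAGAC 85, 133, 135 and 172 bases before one or another start. The window of ACVR2B and both windows of TDGF1 hold neither motif. A match is only a match of letters, and the lack of one concerns these 250 bases alone.

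The effectors moved in opposite ways with the 75th percentile as the scaling. SMAD3 (NM_005902), which carries the signal from the receptors to the nucleus, was highest at 4 h (1701), had a median of 710 and was lowest at 60 h (552). It fell from 1550 at 3 h to 677 at 20 h and then lay between 552 and 742 on all later arrays, below all arrays to 16 h. Its slope was -0.0156 log2 units an hour (standard error 0.00357, limma adjusted p = 0.00124), with a slope within the slides of -0.1 on the first, -0.00964 on the second and 0.0126 on the third. FOXH1 (NM_003923), the DNA-binding partner of SMAD2 and SMAD3, had a lowest signal of 1342, a median of 1541 and a highest of 2016. It was level within each slide, with slopes of -0.00904, 0.0015 and 0.00139, and its mean signals were 1413, 1508 and 1924 on the first, the second and the third slide. All 5 arrays of the third slide, between 1862 and 2016, were above all 14 earlier ones. The slope of FOXH1 was 0.00766 (standard error 0.00131, limma adjusted p = 7.9e-05) under the 75th percentile, 0.0024 under the array median (adjusted p = 0.318) and -0.00081 under the spike-in RNA (adjusted p = 0.888).

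The scalings differ in the level they take as fixed. Between the windows, all tested probes had a median log2 change of 0.13 under the 75th percentile, -0.24 under the array median and -0.52 under the spike-in RNA. Each of these 3 scalings shifts a whole array by 1 constant, so the log2 changes relative to that median are the same by construction. They were -2.28 for NODAL, -2.39 for LEFTY1, -2.44 for LEFTY2, -2.66 for CER1, -1.28 for SMAD3, -0.9 for GDF3, -0.75 for TDGF1, -0.17 for ACVR1B, -0.1 for ACVR2B and 0.32 for FOXH1.

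To see how the coreceptor, receptors and effectors moved beside the falling ligand, the log2 ratio of each gene to NODAL was taken within each array, where the scaling cancels, and its slope on hours was tested. Of the 9 ratios, those of LEFTY1, LEFTY2 and CER1 had slopes that did not pass the test. The slopes were 0.000039 for LEFTY1 (permutation p = 0.991), 0.000928 for LEFTY2 (permutation p = 0.897) and -0.00804 for CER1 (permutation p = 0.15), in two-sided permutation tests of 100000 resamples. With standard errors of 0.00384, 0.00721 and 0.00532, neither a parallel course nor a divergence is shown. A slope near 0 also hides the course of LEFTY2, whose log2 ratio to NODAL was above its early mean on all arrays from 10 to 60 h, with 1.53 at 28 h, and was -0.63 at 66 h and -0.64 at 72 h. The other 6 ratios rose. Their slopes ran from 0.0212 for SMAD3 (permutation p = 0.00314) and 0.023 for GDF3 (permutation p = 0.0133) over 0.0297 for TDGF1 (permutation p = 0.00139), 0.0361 for ACVR1B (permutation p = 0.00677) and 0.038 for ACVR2B (permutation p = 0.00066) to 0.0445 for FOXH1 (permutation p = 0.00013). From the early to the late window, the ratio to NODAL rose by 1 log2 for SMAD3, 1.39 for GDF3, 1.53 for TDGF1, 2.12 for ACVR1B, 2.18 for ACVR2B and 2.6 for FOXH1.

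A rising ratio to NODAL is the common case. In the same limma fit over all genes, the ratio to NODAL rose for 96% of 16693 genes at an adjusted p under 0.05, so the 6 rising ratios say little about these genes. All ratios share the scatter of NODAL. With the slide as a block the ratio rose for 0.0359% of all genes and for 0 of the 9 members (limma adjusted p from 0.542 to 0.949).

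Over the 19 arrays the Pearson correlation of log2 signal with NODAL, a description that includes the shared trend and the shared slides, was 0.951 for LEFTY1, 0.905 for CER1, 0.903 for SMAD3, 0.816 for LEFTY2, 0.752 for TDGF1, 0.723 for GDF3, -0.479 for ACVR2B, -0.499 for ACVR1B and -0.659 for FOXH1. After a straight line in hours and the slide means were taken out, it remained 0.896 for LEFTY1, 0.716 for CER1, 0.666 for SMAD3 and 0.548 for LEFTY2, and was 0.448 for GDF3, 0.189 for TDGF1, -0.389 for FOXH1, -0.397 for ACVR2B and -0.741 for ACVR1B. Without the 66 h array the value for LEFTY2 was 0.319. LEFTY1 ranked 23 in likeness to NODAL among the 13969 genes well above background on all arrays, counting NODAL itself as 1. The 5 genes outside the pathway that were most like NODAL were WDR77 (r = 0.974), STOX2 (0.971), DSCC1 (0.967), B9D2 (0.963) and PARPBP (0.961). STOX2, a storkhead-box gene, followed NODAL in size as well, with a late minus early log2 change of -2.23, and it had the highest correlation (0.98) after the line and the slide means were removed.

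The members also shared short-term movements. NODAL, LEFTY1, LEFTY2 and CER1 all had their highest signal at 6 h. Between 36 and 42 h NODAL went up 1.83-fold and LEFTY1 2.33-fold, while LEFTY2 went from 1259 to 1212 and CER1 from 36.0 to 34.4. The largest movement was at 66 h. From 60 to 66 h NODAL rose 4.13-fold (558 to 2301), LEFTY1 4.09-fold (1320 to 5396) and LEFTY2 1.54-fold (732 to 1130). CER1 went from 23.1, not well above background, to 69.0, which was 2.83-fold the lowest signal well above background at 60 h. At 72 h NODAL was at 1097, LEFTY1 at 3135, LEFTY2 at 538 and CER1, again not well above background, at 13.5. The step was picked for the size of these movements, and the limit of 1.5-fold was chosen after these values were seen. The count of members at this step is therefore not independent of them. Of the 10 genes, 4 went up by at least 1.5-fold (NODAL, LEFTY1, LEFTY2 and CER1). Among the 16733 genes that were well above background at 60 or 66 h, 6.95% did. The other members changed less, with 1.34-fold for SMAD3, 1.28-fold for GDF3, 1.01-fold for TDGF1, 0.965-fold for ACVR2B, 0.942-fold for FOXH1 and 0.738-fold for ACVR1B.

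Genes that NODAL and activin signalling is known to switch on moved at the same step. Of 14 such targets, 10 went up by at least 1.5-fold from 60 to 66 h, against 6.95% of genes well above background at 60 or 66 h. These targets were MIXL1, GSC, EOMES, TBXT, FOXA2, SOX17, FGF8, WNT3, OTX2 and GATA6. FGF8 was not well above background at 60 h, so its 1.77-fold is only the ratio of the measured signals. TBXT, the primitive streak factor Brachyury, went from 33.7, its lowest of all 19 arrays, to 295 and back to 94.7 at 72 h. Its median was 104. EOMES, a regulator of mesoderm and endoderm, went from 94.0 to 372 and back to 117, and WNT3, a ligand needed for the streak, from 366 to 900 and back to 383. GATA6 went from 182 to 504 and SOX17 from 546 to 1088. TBXT, EOMES, GATA6 and SOX17 had their highest signal of all 19 arrays at 66 h. Of 14 other inhibitors of the pathway, 3 went up and 1 went down by that limit, against 6.95% of all genes up. Of the 13969 genes well above background on all arrays, 3.51% went down by it. SMAD7 and PMEPA1, feedback inhibitors that the pathway induces, went up 2.11-fold and 2.33-fold, and SMURF2 1.69-fold. DAND5, which was dim, went down from 61.7 to 38.7 (0.628-fold). Of 12 other effectors and cofactors, 0 went up and 1 went down by that limit, beside the same shares. The one down was SMAD2, from 678 to 412. SMAD4 went from 12352 to 8668, short of the limit. Both had their lowest signal of all 19 arrays at 66 h. The steps of these inhibitors and effectors under other scalings were not counted.

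The 66 h values rest on 1 array of 1 culture. That array had the lowest 75th percentile of all (655, where the 72 h array also had 655 and the 60 h array 776), and 61.2% of its probes were well above background. Trophoblast and amnion markers moved at the same step, with 5 of 9 up by at least 1.5-fold, against 6.95% of all genes. Among these 5 were CDX2, from 27.4, not well above background, to 168, and HAND1, from 115 to 641. The part of these markers in the result was not tested. Under the spike-in RNA scaling, the median of all genes fell by 0.721 log2 at this step, and 3 targets (EOMES, TBXT and GATA6) and 3 members (NODAL, LEFTY1 and CER1) still went up by at least 1.5-fold. After normexp and quantile normalization these counts were 6 and 3. The share of all genes up by that limit was not counted under either setting.

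Over the whole course the targets moved less than the ligand. Of the 14 targets, 3 fell, against 29.8% of all genes, 0 rose, against 24.6%, and 11 were called in neither direction, with a median log2 change of -0.41. WNT3 fell from 1368 to 502 (limma adjusted p = 0.00198), FGF8 from 105 to 36.6 (adjusted p = 0.00125) and OTX2 from 468 to 215 (adjusted p = 0.016). EOMES was at 188 early and 160 late, and TBXT at 91.7 and 98.0. With the slide as a block, 0 of the 14 were called.

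For the other genes of the pathway the same shares of all genes, 24.6% rising and 29.8% falling, are the background. Of 6 other ligands, coreceptors and convertases, 1 rose and 3 fell. INHBA, the activin A subunit that signals through the same receptors, fell from 1514 to 745 (limma adjusted p = 5.3e-06), and the second EGF-CFC coreceptor CFC1, which has a near-identical copy, from 72.7 to 42.5 (adjusted p = 0.0402). FURIN, a convertase that cleaves the NODAL precursor, fell from 271 to 225 (adjusted p = 0.0117). GDF1, a ligand that pairs with NODAL in the embryo and shares a transcript with CERS1, rose from 2096 to 2891 (adjusted p = 0.0385), with a slope of -0.000404 with the spike-in RNA. With the slide as a block INHBA, CFC1 and GDF1 were still called (limma adjusted p = 0.0275, 0.0219 and 0.0426). FURIN was not called with that block (limma adjusted p = 0.093).

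Of 5 other receptors, 1 rose and 2 fell. ACVR1C, the type I receptor ALK7 that also accepts NODAL, rose from 162 to 422 (limma adjusted p = 2.9e-05), and its slope was above 0 under the array median (adjusted p = 0.000328) and the spike-in RNA (adjusted p = 0.0747). With the slide as a block the rise was not called (adjusted p = 0.154). TGFBR1, the type I receptor for TGF-beta, fell from 224 to 103 (adjusted p = 4.2e-06) and ACVR1, a type I receptor for BMPs, from 1591 to 1123 (adjusted p = 0.00139). With the slide as a block the fall of TGFBR1 was called (limma adjusted p = 0.00943) and that of ACVR1 was not (limma adjusted p = 0.519).

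Of 12 other effectors and cofactors, 1 rose, 2 fell and 9 were called in neither direction. SMAD2 was at 515 early and 490 late and SMAD4 at 11022 and 10128. The coactivator EP300 fell from 1715 to 983 (limma adjusted p = 0.000319), and DRAP1, a corepressor known to restrain FOXH1, from 27344 to 17602 (adjusted p = 7.8e-07). With the slide as a block DRAP1 was still called (limma adjusted p = 0.0421) and EP300 was not (limma adjusted p = 0.123). SKI, a corepressor of SMADs, rose from 645 to 911 (adjusted p = 0.000237), also with the slide as a block (adjusted p = 0.00726) but not with the spike-in RNA (adjusted p = 0.7).

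Of 14 other inhibitors, 3 rose and 5 fell, against 24.6% and 29.8% of all genes, and with the slide as a block 0 rose and 1 fell (NCLN). SMAD7 fell from 2866 to 903 (limma adjusted p = 0.00556) and PMEPA1 from 1452 to 502 (adjusted p = 0.00893), with 0.405 for SMAD7 and 0.934 for PMEPA1 as the adjusted p with that block. NCLN, part of a complex that antagonizes NODAL, fell from 17156 to 9828 (adjusted p = 8.7e-07). FSTL3, an activin-binding protein, rose from 543 to 799 (adjusted p = 0.00267), CHRD, a BMP antagonist, from 424 to 457 (adjusted p = 0.0426) and NOMO1, the partner of NCLN with near-identical copies, from 3260 to 3472 (adjusted p = 0.022). Under the array median or the spike-in RNA, 0 of these 14 inhibitors rose. Among all 32113 tested probes, 4678 rose under the array median and 1489 under the spike-in RNA, so this count says little about these inhibitors.

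Markers of cell types were set beside these changes, and their part in them was not tested. Beside the marker counts below, 29.8% of all genes fell and 24.6% rose. With the slide as a block, 1 pluripotent stem cell marker fell and 1 trophoblast and amnion marker rose. No fibroblast or neuroectoderm marker was called with that block, against 5.97% falling and 4.12% rising of all genes. All 10 markers of pluripotent stem cells were well above background on all 19 arrays, and their summed signal was 953014 to 957551 early and 744812 to 763894 late. Of these 10, 5 fell, with the largest changes in ZFP42 (44263 to 24810), DNMT3B (181447 to 101131) and L1TD1 (120766 to 79391), and 0 rose. Of 10 fibroblast markers, 5 could be tested, with COL1A2 up from 4715 to 6079 (not under the spike-in RNA, with a slope of -0.00209) and PDGFRB down from 101 to 53.3, while COL3A1, LUM, POSTN, FAP and TWIST2 were well above background on at most 2 arrays, and the summed signal was 39394 to 42628 early and 29976 to 47209 late. Of 9 trophoblast and amnion markers tested, 4 rose (HAND1 and CGB3 alone under the spike-in RNA) and 1 fell. HAND1 went up from 48.0 to 236, CGB3, which has near-identical copies, from 70.2 to 169, and CGA from 12.0, not well above background, to 45.4. CDX2 went down from 102 to 37.8. In the late window CDX2 was well above background at 66 h alone, where it had its highest signal (168). The summed signal of the trophoblast and amnion markers was 8048 to 9168 early and 10375 to 14436 late. Of 6 neuroectoderm markers tested, 2 fell, PAX6 from 160 to 11.8, not well above background late, and NES from 25232 to 16411. SOX1 and ZIC1 were not well above background on any array, and the summed signal of the neuroectoderm markers was 26200 to 29285 early and 14250 to 18768 late. The trophoblast and amnion sum was mostly KRT7 (7100 early, 11104 late), and the neuroectoderm sum was mostly NES. Such sums follow the brightest probes and do not measure a cell type.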

How the data were processed

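RNA of KhES-3 cells was measured on one-colour (Cy3) Agilent human arrays. The authors deposited the output of Agilent Feature Extraction 10.10.1.1, in which the processed intensity of each spot is background-subtracted but not scaled between arrays, with flags of 0 or 1 for spots well above background, and a table of intensities multiplied by 1 factor per array. How these factors were chosen is not given in the sources used here.

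Control and flagged spots were left out, spots of a probe were averaged, and log2 intensity was taken minus the 75th percentile of the array (655 to 1003), over all spots kept. Between 49.5% and 64.7% of the probes were well above background on an array. Probes were named through RefSeq accessions (GRCh38.p14), with TDGF1 found as CRIPTO, and a gene was read from its probe with the highest mean. Slopes came from limma 3.58.1 (R 4.3.3) over 32113 probes, those that were well above background on 5 or more arrays, and the script was tested on simulated data. Permutation tests and tables used Python 3.11.15, numpy 2.4.6, pandas 2.3.3 and scipy 1.17.1. The permutations and the fits treat the arrays as independent, although neighbours in time may not be. The alternatives were other scalings, filters, time axes and windows, the slide as a block, fewer arrays and each array left out in turn. The members, the lists and the tests were chosen with earlier results of these data known. Named are all members, of each list up to 3 called genes with the largest rise and up to 3 with the largest fall, the 5 genes most like NODAL, and listed genes a result turns on. One listed gene, CFC1B, had no named probe. One listed target gene is not reported here. LEFTY1, LEFTY2 and FOXH1 had no promoter entry used here. The number of arrays limits the precision.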

Additional observations from a re-analysis of the deposited data

How the results depend on the processing

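With 1 array at each time point, no culture was repeated, and the calls rest on the scatter around a line. Leaving out each array in turn kept 7 genes falling and 1 rising. The slide as a block ended 5 of the 7 falls and the rise. No paired analysis was possible because no time point was repeated. CER1 and ACVR1B lie near background, which limits them.

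Falling genes numbered 2 with the slide as a block, also with the array median and that block, but 7 with the spike-in RNA and the block. The share of all genes falling was not counted under either scaling with the block. With the spike-in RNA and no block, 11192 of 32113 probes fell and 1489 rose, and their median late minus early log2 change was -0.52. Falls were thus common under that scaling, and the count of 7 does not show falls particular to these genes. Rising genes numbered 0 with the array median, the spike-in RNA, the slide as a block, and either scaling with the block, and 2 with normexp and quantile normalization (ACVR2B and FOXH1). Of the 32113 probes, 4678 rose with the array median and 7158 with normexp and quantile normalization. The 10 targets up at 66 h became 3 with the spike-in RNA and 6 with normexp and quantile normalization, with no share of all genes counted beside them. The ACVR2B slope (0.00118) turned to -0.00408 with the array median, -0.00729 with the spike-in RNA, and -0.00144 and -0.0201 with these and the block. That of FOXH1 (0.00766) turned to -0.00081 with the spike-in RNA, and -0.0219 with it and the block and -0.00317 with the array median and the block, and its late minus early change to -0.20 with the spike-in RNA. That of ACVR1B (-0.000736) turned to 0.00492 with the block, 0.000872 with the array median and the block, 0.0167 over 3 to 42 h, 0.00846 over 3 to 54 h and 0.0415 on log2 hours, and ran from -0.00196 to 0.00169 with 1 array left out. The ratio slopes to NODAL turned to -0.00827 for LEFTY1 and -0.0198 for LEFTY2 with the block, and ran from -0.00227 to 0.00252 and from -0.00152 to 0.00882 with 1 array left out. None of these reversals but those of ACVR2B with the array median and ACVR1B over 3 to 42 h passed an adjusted p of 0.05. The cause of these differences was not tested. The spike-in RNA with the block, the array median with the block, the arrays from 3 to 42 h, the percentile over averaged probes and the scalings of the 66 h step were chosen after seeing the data.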
